A study of Mus musculus with 8 samples.

Results

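The ID8 IP2 Control and Notch3IC lines of Set 1, 1 of the 4 matched lentiviral infections that were sequenced, were compared with the lines of Sets 2, 3 and 4. The Set 1 side holds 2 of the 8 libraries, chosen by the set number in their labels, and the other side holds 6. Both sides carry the same conditions, so condition (Control or Notch3IC) was a term of the fit. The 2 libraries of Set 1 come from 1 infection and its later handling, and what belongs to the infection, to the culture or to the preparation of the RNA cannot be told apart. The library numbers that head the Set 1 tables are lower than those of the other sets and not adjacent to them, and whether Set 1 was sequenced, aligned or counted at another time is not given in the sources used here. The p-values therefore describe the spread between these libraries, not between infections.

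ID8 IP2 is a line of mouse ovarian surface epithelium, a subline of ID8 recovered after passage in C57BL/6 mice, and serves as a model of disseminated ovarian cancer. By the study's methods the cells carry lentiviral luciferase and mCherry, a feature of Controls and Notch3IC lines alike. Later testing pointed to mycoplasma in the ID8 IP2 lines of both conditions. The Notch3IC lines were infected with pCCL lentivirus for an HA-tagged intracellular domain of Notch3 followed by IRES-GFP, and the Control lines with the empty pCCL vector. Set 1 was among the sets injected into mice and used in the assays of invasion and growth, and each line was sequenced 1 time. Polyadenylated RNA was sequenced, and the counts per gene summed to 24910528 and 22980440 in Control and Notch3IC of Set 1, 19013578 and 15524262 in Set 2, 23601232 and 25344051 in Set 3, and 28208072 and 27107061 in Set 4.

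The surface epithelium of the ovary is a mesothelium-like layer that keeps both epithelial genes (keratins, E-cadherin) and mesenchymal ones (vimentin), and it carries the transcription factor Wt1. Cells in culture that spread and tense their actin cytoskeleton switch on genes through the coactivators Yap and Taz of the Hippo pathway, which bind DNA with Tead factors, and through Mrtf and serum response factor (SRF). TGF-beta and activins signal through Smad proteins to matrix genes. These pathways share many target genes, so the lists used here overlap.

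Levels are normalized counts, which are counts divided by the library size after TMM scaling and multiplied by the mean library size. A gene was called when edgeR's quasi-likelihood test of Set 1 against Sets 2 to 4 gave an adjusted p under 0.1 and the log2 difference reached 1 in either direction. Of 12899 genes tested, 354 were called higher in Set 1 (2.74%) and 753 lower (5.84%), together 8.58%, and the count of each gene list is to be read beside these shares. Among the tested genes 469 passed the filter on low counts set by the design but not a filter by condition alone. The first asks for fewer libraries above the limit on counts, and such a gene was above it in few libraries, on 1 side or across both. These 469 genes hold 30 of the higher and 51 of the lower calls, which support nothing by themselves. With library totals alone as the scaling, which moved the median of all genes to -0.15 on the log2 scale, 262 were higher and 997 lower. With the counts of each set summed to 1 value, 1 set against 3, the calls were 228 higher and 492 lower. They were 214 and 438 without the Control library of Set 1 and 219 and 397 without its Notch3IC library, where 1 library stands for Set 1 and is taken to vary like the others.

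The Set 1 libraries lay apart from the other 6. On the second principal component, which held 26.5% of the variance, Control and Notch3IC of Set 1 were at -60.4 and -49.4 and the others between 9.62 and 32.5. The first component held 49.0% and ordered mainly Control against Notch3IC, and on the third (15.1%) the libraries of Set 2 stood lowest, at -31.9 and -46.6. The root mean square log2 distance of Control Set 1 from the other Control lines was 0.745 to 0.808, against 0.311 to 0.593 among those. In the Notch3IC lines the distances were 0.753 to 0.914 and 0.322 to 0.827, and these ranges overlap, since Notch3IC of Set 2 lies far from those of Sets 3 and 4.

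**Figure D1:**
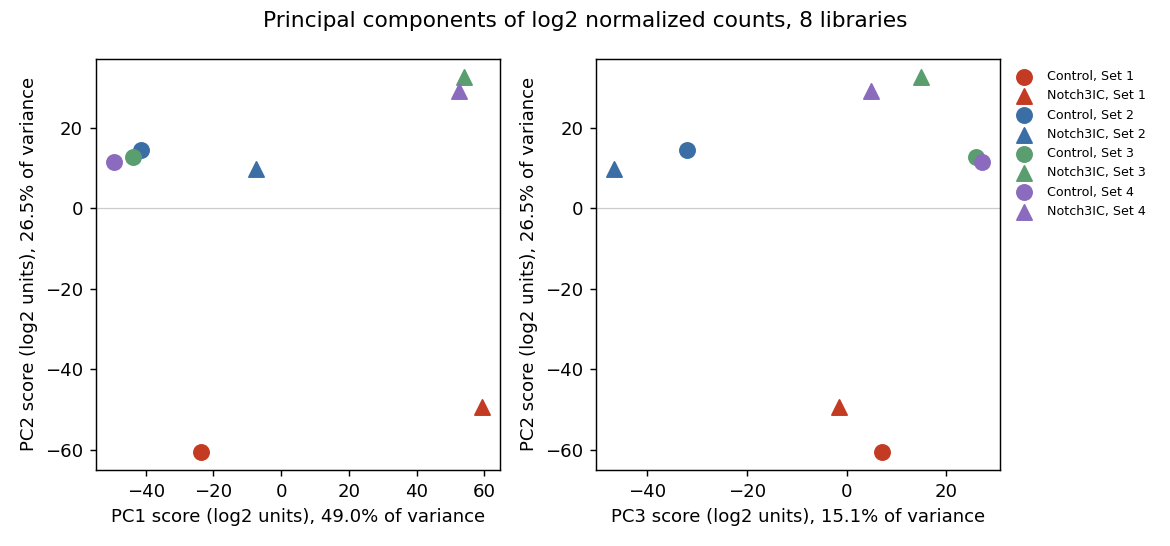
The 8 libraries on principal components of log2 normalized counts, the second against the first (left) and against the third (right), with axes in component scores and the share of variance, circles for Control, triangles for Notch3IC and 1 color per set. Set 1 stands at -60.4 and -49.4 on the second component, below the 6 other libraries.

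The transferred domain was present where the labels place it. Notch3 had 38.8 normalized counts in the Control line of Set 1 against 40.6, 70.9 and 42 in those of Sets 2, 3 and 4, and 4323 in the Notch3IC line against 468, 9204 and 5831. Every Notch3IC library was above every Control library, with Set 2 the lowest of the 4, and the tables do not separate the insert from the endogenous gene. For Hey1 the values were 29.8 against 20.3, 56.5 and 34.1 in the Control lines and 4080.2 against 438, 10624 and 7999.5 in the Notch3IC lines, Hey1 being a direct target of Notch. For Hey1 Set 1 lay inside the range of the others in each line. For Notch3 its Notch3IC line did, and its Control line was the lowest of the 4 Control lines. The genes had log2 differences of -0.30 and -0.55 at edgeR adjusted p of 0.82 and 0.71. No member of the Notch pathway and targets list was called among 32 tested by edgeR or DESeq2, with 8 at an unadjusted p under 0.05, and 2 were called higher with the set as fixed block terms. Without Set 2 as a whole 1 member was called higher and 4 lower, Hey1 (adjusted p = 0.0081) and Heyl (adjusted p = 0.021) among the lower, and without Notch3IC of Set 2 alone 0 were higher and 3 lower. Hes1, another Notch target, was above all 6 others in Set 1 (0.95 ± 0.14 (log2 ± SE), adjusted p = 0.0035), under the fold limit. Itgb1, the beta-1 integrin subunit, was as well (0.72 ± 0.07 (log2 ± SE), adjusted p = 0.00091).

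The markers of the tissue were present in all lines. The 30 listed ovarian surface and mesothelial genes summed to 47666 and 24705 normalized counts in Control and Notch3IC of Set 1, against 78271 to 106142 and 39778 to 54649 in Sets 2 to 4, with Upk3b the most abundant and 1 gene at 0 in all libraries. Of 32 leukocyte genes, 9 were at 0 in every library and 6 reached the test, their sum was 212 and 224 in Set 1 against 223 to 275 elsewhere, and Cd14 was the most abundant. The endothelial genes summed to 903 and 4587 in Set 1, against 1310.2 to 1506.9 in the other Control lines and 837 to 4167 in the other Notch3IC lines. In bulk RNA, fewer cells of a type and less RNA per cell cannot be told apart.

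The difference of Set 1 was alike in direction in the Control and the Notch3IC line. All 753 genes called lower and 353 of the 354 called higher differed in the same direction in both lines, beside 80.5% of all genes. Since a call averages over both lines, this follows in large part from the calling. Of the called genes, 349 of the higher and 713 of the lower had their Set 1 library outside the range of the 3 other libraries in each line. Over all tested genes that held for 27.7% on the high side and 23.9% on the low side, so lying outside a range of 3 is common here. Both Set 1 libraries lay above all 6 others in 270 of the higher genes and below all 6 in 547 of the lower ones, beside 20.5% and 16.1% of all genes. Across all 12899 genes the log2 differences of the lines, which share no library, had a Pearson r of 0.793 and a Spearman rho of 0.763, as a description, since genes are not independent replicates. A test of whether the Notch3IC effect itself differed in Set 1 called 0 genes with edgeR, with 436 at an unadjusted p under 0.05, and DESeq2 called 5.

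**Figure D2:**
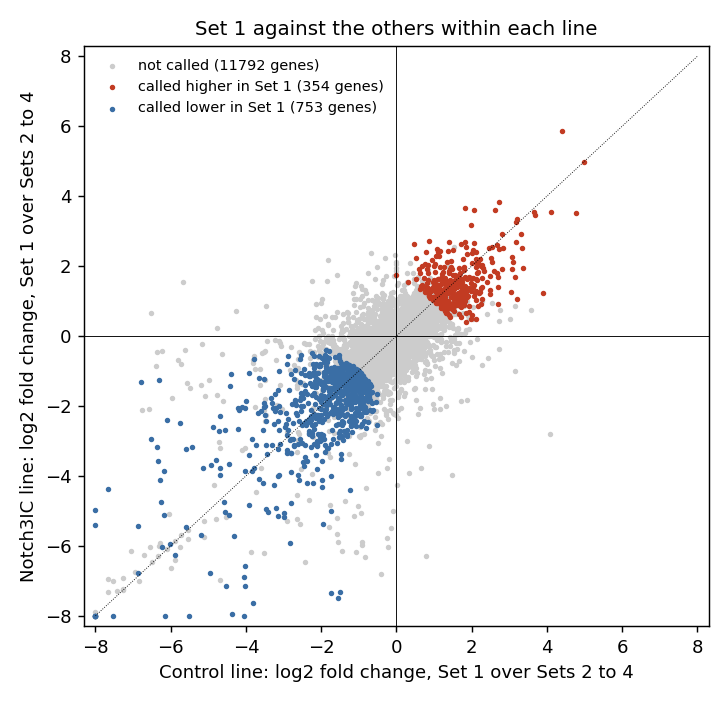
Each point is 1 of 12899 genes, with the log2 fold change of Set 1 over Sets 2 to 4 in the Control line (x axis) and in the Notch3IC line (y axis), and values past the axis limits drawn at the edge. The 354 genes called higher (red) and 753 called lower (blue) lie in the quadrants where both lines move alike, with 1 exception among the higher genes.

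A share of the Hippo and SRF targets was higher in Set 1. Of 36 tested, 9 were called higher and 0 lower, beside 2.74% and 5.84% of all genes, with a median log2 difference of 0.63 (0.62 in the Control line and 0.55 in the Notch3IC line) beside -0.002 over all genes. The called members were Ctgf, Cyr61, Ankrd1, Fjx1, Tagln, Acta2, Cnn1, Actg2 and Actn1. Actg2 lost its call without either Set 1 library, without Set 3, without Set 4 and with 1 value per set. With 1 value per set 8 members were called.

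The first of these are targets that Yap and Tead are known to drive. Ctgf had 2249.9 normalized counts in the Control line of Set 1 against 646, 523 and 707 in those of Sets 2, 3 and 4, and 5211 in the Notch3IC line against 775, 1126 and 745. Ctgf, a secreted matricellular growth factor, was above all 6 other libraries in both Set 1 lines, by 2.23 ± 0.20 (log2 ± SE), adjusted p = 0.00091. Cyr61 stood at 10967 in Control Set 1 against 4601, 4004 and 4099, and at 10416 in Notch3IC Set 1 against 6208, 5165 and 4265. Cyr61, its relative, was likewise above all others at 1.19 ± 0.14 (log2 ± SE), adjusted p = 0.0017. For Ankrd1 the values were 3158 against 626, 1017 and 1341 in the Control lines and 4541 against 972, 1561 and 989 in the Notch3IC lines. Ankrd1, an ankyrin repeat cofactor of the nucleus and sarcomere, did not overlap either and differed by 1.81 ± 0.26 (log2 ± SE), adjusted p = 0.0032. Of the exon bases of Ctgf 23.2% overlap another gene in the GRCm38 annotation.

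Upstream flanks are shown for the called members of this list that have an entry in the RefSeq promoter table of GRCm38.p6, a later build than the mm9 of the counts, and that hold the letters GGAATG or their reverse complement CATTCC, the core bound by Tead factors. Capitals mark the match, and each run is the 250 bases before the transcription start on the gene's own strand. The flank of Cyr61 (Ccn1 in RefSeq) is chr3:145649986-145650235 on the minus strand, with the match beginning 103 bases before the start.
Cyr61: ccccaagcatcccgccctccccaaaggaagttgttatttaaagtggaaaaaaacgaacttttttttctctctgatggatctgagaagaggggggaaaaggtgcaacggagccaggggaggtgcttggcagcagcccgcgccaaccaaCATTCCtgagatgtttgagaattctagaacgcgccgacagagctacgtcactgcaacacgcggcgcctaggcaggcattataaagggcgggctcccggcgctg
The flank of Ankrd1 is chr19:36119845-36120094, minus strand, with matches 210 and 123 bases before the start.
Ankrd1: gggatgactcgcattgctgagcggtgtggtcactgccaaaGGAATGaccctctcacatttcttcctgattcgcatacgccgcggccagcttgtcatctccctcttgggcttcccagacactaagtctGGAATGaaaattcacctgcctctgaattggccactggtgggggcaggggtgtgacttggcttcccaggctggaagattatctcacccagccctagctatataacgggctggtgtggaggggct
The flank of Acta2 is chr19:34255374-34255623, minus strand, with a match 146 bases before the start.
Acta2: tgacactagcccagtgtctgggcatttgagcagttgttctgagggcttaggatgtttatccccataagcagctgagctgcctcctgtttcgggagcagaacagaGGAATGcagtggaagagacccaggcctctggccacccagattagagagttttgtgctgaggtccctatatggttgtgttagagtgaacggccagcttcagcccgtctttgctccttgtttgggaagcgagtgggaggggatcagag
Of the 9 called members 5 had an entry, and 3 of these held the letters on either strand, as did 12.6% of 32851 promoters of the same length. The flanks of Cnn1 and Actn1 held none. The CArG box, the site of SRF, was found in its strict form in 0 of the 5 and in 1.47% of all promoters. The strict form is CC and GG around a run of only A and T. Forms that differ from it by a base, such as ccctatatgg in the flank of Acta2, were not searched for. A match of letters describes the window only, and the counts do not show binding.

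The contractile members Tagln, Acta2, Cnn1, Actg2 and Actn1 belong to the SRF side of the list. Tagln had 2017 normalized counts in the Control line of Set 1 against 169, 387 and 96 in those of Sets 2, 3 and 4, and 4116 in the Notch3IC line against 347, 505 and 368. Tagln, an actin-binding protein of smooth muscle, was higher in Set 1 by 3.28 ± 0.38 (log2 ± SE), adjusted p = 0.0017, with no overlap. For this gene 67.9% of the exon bases overlap a gene model on GRCm38, and the strand of the reads is not given in the sources used here. Acta2 stood at 33569 in Control Set 1 against 10994, 6988 and 2854, and at 73832 in Notch3IC Set 1 against 17090.4, 22526 and 14458. Acta2, smooth muscle actin, spread over several-fold among the other 6 libraries but stayed below Set 1 (2.16 ± 0.38 (log2 ± SE), adjusted p = 0.006). For Cnn1 the values were 111 against 35.8, 37.3 and 4.76 in the Control lines and 222 against 71.8, 44.1 and 29.5 in the Notch3IC lines. Calponin 1 followed at 2.17 ± 0.55 (log2 ± SE), adjusted p = 0.022, with the lowest value in Control Set 4, and lost its call without either Set 1 library. Actn1, which cross-links actin filaments, was higher by 1.18 ± 0.11 (log2 ± SE), adjusted p = 0.00098. Acta2 and Actg2 have a near copy and their counts may be shared among the actin genes. The list of smooth muscle and mural genes had 4 higher and 1 lower (Kcnj8) of 14 tested, beside 2.74% of all genes higher and 5.84% lower. The 4 higher were Tagln, Acta2, Cnn1 and Actg2, the same genes as on the Hippo and SRF list. The calls of Cnn1, Actg2 and Kcnj8 were lost without Notch3IC of Set 1. Myh11 had 0 normalized counts in the Control line of Set 1 against 38.2, 0 and 0 in those of Sets 2, 3 and 4, and 4.48 in the Notch3IC line against 39.6, 17.4 and 3.37. Myh11, the smooth muscle myosin, overlapped between the sides and was not called (adjusted p = 0.32). For Des the values were 3.98 against 13.1, 2.87 and 1.59 in the Control lines and 8.95 against 10.3, 15.6 and 6.75 in the Notch3IC lines. Des, desmin, overlapped as well (adjusted p = 0.76).

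In the TGF-beta and BMP signaling list 6 of 50 tested were called higher (Inhba, Fstl3, Ltbp1, Acvrl1 and Grem1 among them) and 2 lower (Bmp2 and Bmp4), beside 2.74% and 5.84% of all genes, with a median of 0.17. The lower count is below the share of all genes. Inhba had 503 normalized counts in the Control line of Set 1 against 84.7, 154 and 127 in those of Sets 2, 3 and 4, and 1258 in the Notch3IC line against 154, 286 and 248. Inhba, which encodes the subunit of activin A, was above all others (2.25 ± 0.25 (log2 ± SE), adjusted p = 0.0014). Fstl3, a secreted inhibitor of activin, was higher by 1.95 ± 0.24 (log2 ± SE), adjusted p = 0.002, with 47.3% of its exon bases under another gene, and Ltbp1, which stores latent TGF-beta in the matrix, by 1.40 ± 0.21 (log2 ± SE), adjusted p = 0.0035. For Bmp2 the values were 213 against 729, 408 and 584 in the Control lines and 89.5 against 1013, 608 and 507 in the Notch3IC lines. The ligand Bmp2 was below all others in both Set 1 lines (-2.08 ± 0.45 (log2 ± SE), adjusted p = 0.013), and Bmp4 was lower by -1.21 ± 0.34 (log2 ± SE), adjusted p = 0.031, and both calls were lost without Notch3IC of Set 1. The count of higher members was 4 without Set 3 or Set 4, and in single libraries 4 without Notch3IC of Set 3 or Control of Set 4. The count of lower members was 1 without Notch3IC of Set 1, 3 without Control of Set 2 and 4 without Notch3IC of Set 2.

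Immediate early and ERK output genes had 5 of 37 called higher (Fosl1, Hbegf, Etv4, Egr2 and Areg) and 0 lower, beside 2.74% of all genes higher and 5.84% lower, with a median of 0.47. Egr2 did not pass a filter by condition alone, with which 4 were called. Its highest values were 36.9 normalized counts in Notch3IC of Set 1 and 11.7 in Notch3IC of Set 2. In the Control lines Egr2 had 0.995 normalized counts in Set 1 and 2.39 in Set 2. Its call was lost with DESeq2 (adjusted p = 0.193), without either Set 1 library, without Set 3 and without Set 4. Fosl1 had 492 normalized counts in the Control line of Set 1 against 97.8, 89 and 152 in those of Sets 2, 3 and 4, and 333 in the Notch3IC line against 139, 46.8 and 72.5. Fosl1, a subunit of the AP-1 factor that builds up under sustained ERK signaling, was above all others in Set 1 (2.05 ± 0.34 (log2 ± SE), adjusted p = 0.0051), with 57.2% of its exon bases overlapping another gene. Hbegf, a ligand of the EGF receptor, was higher by 1.41 ± 0.26 (log2 ± SE), adjusted p = 0.0069 and Etv4, an Ets factor induced by ERK, by 1.76 ± 0.35 (log2 ± SE), adjusted p = 0.0095. The calls of Hbegf and Etv4 were lost without Notch3IC of Set 1. The count of the list was 3 without either Set 1 library, without Notch3IC of Set 4 or without Set 4.

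Ligands of other receptors included members called in either direction. Sema4f had 719 normalized counts in the Control line of Set 1 against 88.3, 82.3 and 65.8 in those of Sets 2, 3 and 4, and 272 in the Notch3IC line against 73.3, 27.5 and 27.8. Sema4f, a transmembrane semaphorin, was higher in both lines (2.97 ± 0.32 (log2 ± SE), adjusted p = 0.0014), and in each set its Control line was above its Notch3IC line. Pdgfa and Pdgfc, ligands of the PDGF receptors, were higher by 1.44 ± 0.14 (log2 ± SE), adjusted p = 0.0011 and 1.84 ± 0.15 (log2 ± SE), adjusted p = 0.00072, while the receptor Pdgfra was lower by -1.31 ± 0.26 (log2 ± SE), adjusted p = 0.009. Igfbp4 and Igfbp6, which bind insulin-like growth factors, were lower by -1.85 ± 0.36 (log2 ± SE), adjusted p = 0.0087 and -1.75 ± 0.28 (log2 ± SE), adjusted p = 0.0042. The calls of Pdgfra and Igfbp4 were lost without Notch3IC of Set 1. The whole list of IGF, FGF, PDGF, VEGF and ErbB ligands and receptors held 6 higher and 8 lower of 47, beside 2.74% of all genes higher and 5.84% lower, with a median of -0.29. The lower count was 5 without Control of Set 1 and 2 without its Notch3IC library.

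**Figure D3:**
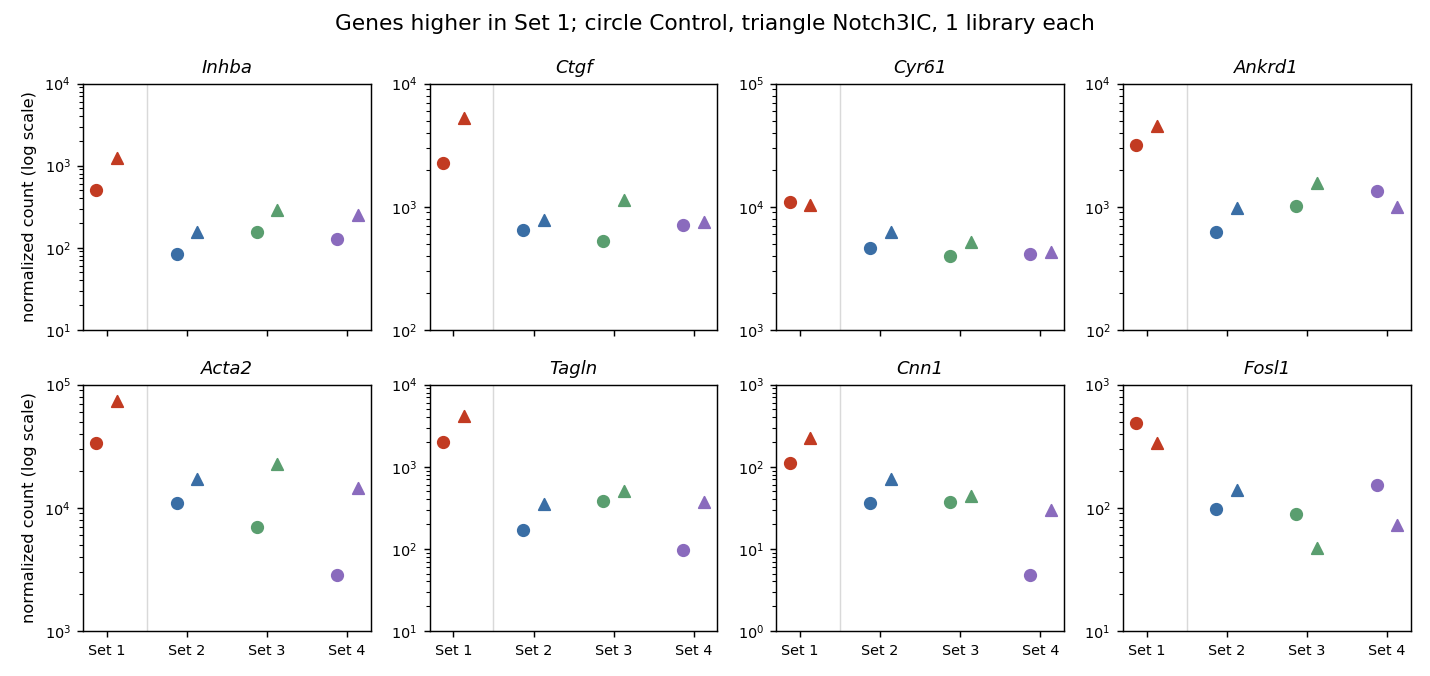
Normalized counts on log axes of 8 genes called higher in Set 1, by set, with 1 circle (Control) and 1 triangle (Notch3IC) per set. In each panel both Set 1 symbols lie above the 6 others.

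Of 27 collagens 4 were called higher (3 with a filter by condition alone) and 4 lower, beside 2.74% of all genes higher and 5.84% lower, with a median of 0.49, and 2 and 2 with 1 value per set. Without Control of Set 1 they were 2 and 1, and without its Notch3IC library 2 and 2. With the set as a random block effect Col17a1 (adjusted p = 0.11) and Col14a1 (adjusted p = 0.149) lost their calls. Col5a1 had 26592 normalized counts in the Control line of Set 1 against 12301, 12648 and 10782 in those of Sets 2, 3 and 4, and 50535 in the Notch3IC line against 18741, 25709 and 34039.7. Col5a1, a chain of the minor fibrillar collagen V, was above the other libraries of its own line, by 1.06 ± 0.19 (log2 ± SE), adjusted p = 0.0061, just over the fold limit of 1. Taken as 1 value per set, without Control of Set 1 and without Notch3IC of Set 2 or the whole of Set 2, it passed the test at log2 differences of 0.99, 0.95, 0.97 and 0.97, just under the limit. Col7a1, the anchoring fibril collagen, was higher by 2.27 ± 0.31 (log2 ± SE), adjusted p = 0.0026. Col6a3 stood at 811 in Control Set 1 against 358, 41.2 and 36.5, and at 11961 in Notch3IC Set 1 against 2110.5, 1686 and 4526. For Col6a1 the values were 5242 against 26073, 16624 and 16519.9 in the Control lines and 20593 against 26554, 54703 and 45083 in the Notch3IC lines. Both genes encode chains of collagen VI, and Col6a3 was higher (2.32 ± 0.70 (log2 ± SE), adjusted p = 0.04) where Col6a1 was lower (-1.44 ± 0.35 (log2 ± SE), adjusted p = 0.018). Col6a2, the remaining chain of the classical trimer, was lower by -1.39 ± 0.43 (log2 ± SE), adjusted p = 0.043, a call that was lost with 1 value per set (adjusted p = 0.104). The calls of Col6a3 and Col6a2 were lost without either Set 1 library or without Set 3, that of Col6a2 also without Set 4, and that of Col6a1 without Control of Set 1.

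Of 31 matricellular and matrix glycoproteins 5 were called higher (Fbln2, Npnt, Thbs1, Postn and Vwa1) and 4 lower (Efemp1, Mmrn1, Mgp and Tnxb), with a median of -0.13, and of 24 proteoglycan and hyaluronan genes 5 were higher (Cd44, Sdc3, Has2, Podnl1 and Gpc1) and 4 lower (Dcn, Has1, Ogn and Hyal1), with a median of 0.40, beside 2.74% of all genes higher and 5.84% lower. With the set as a random block effect Mgp and Tnxb (adjusted p = 0.179 and 0.138) and Ogn and Hyal1 (adjusted p = 0.298 and 0.18) lost their calls. Mmrn1 and Has1 reached the test only through the sets where they are high. With 1 value per set both lists had 3 higher and 1 lower, and without Control of Set 1 they had 3 and 1, and 2 and 1. Without Notch3IC of Set 1 they had 3 and 2, and 3 and 1. Of 18 laminin and basement membrane genes 3 were higher (Lama3, Lama1 and Lamb3) and 2 with a filter by condition alone. Lama1 and Lamb3 lost their calls without either Set 1 library or with 1 value per set, and Lama1 with the set as a random block effect (adjusted p = 0.106). Fbln2 had 52339.8 normalized counts in the Control line of Set 1 against 19509, 16583 and 13176 in those of Sets 2, 3 and 4, and 90518 in the Notch3IC line against 26394, 29510.2 and 31985. Fbln2, a fibulin of elastic fibers and basement membranes, was above all others (1.65 ± 0.13 (log2 ± SE), adjusted p = 0.00072). Lama3 stood at 76.6 in Control Set 1 against 8.35, 3.83 and 5.55, and at 79.4 in Notch3IC Set 1 against 7.33, 5.51 and 8.43. Lama3, the alpha chain of a laminin that anchors epithelia, was higher in Set 1 at about the same level in both lines (3.58 ± 0.29 (log2 ± SE), adjusted p = 0.00072), but it reached the test only through the Set 1 libraries, where it is high. For Dcn the values were 1013 against 7859, 8631 and 6126 in the Control lines and 575 against 5430.1, 6427 and 4656 in the Notch3IC lines. Decorin, a small proteoglycan that binds collagen fibrils, was far below all others in both lines (-3.07 ± 0.20 (log2 ± SE), adjusted p = 0.0005). Thbs1, an activator of latent TGF-beta, was higher by 1.83 ± 0.24 (log2 ± SE), adjusted p = 0.0022 and Cd44, the hyaluronan receptor, by 1.19 ± 0.11 (log2 ± SE), adjusted p = 0.00092. Of 19 mesenchymal genes Vim, an intermediate filament, was higher by 1.15 ± 0.11 (log2 ± SE), adjusted p = 0.00092 and 4 were lower (Dcn, S100a4, Pdgfra and Prrx1), beside 2.74% of all genes higher and 5.84% lower, with a median of 0.03. The call of Prrx1 was lost without either Set 1 library and with the set as fixed or random block terms (adjusted p = 0.115 and 0.155). Of 19 integrins 3 were called lower (Itgb8, Itga10 and Itgb2), and 1 without Notch3IC of Set 1 or with 1 value per set. The call of Itgb2 was lost with the set as a random block effect (adjusted p = 0.146).

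The matrix proteases and inhibitors held 4 higher and 4 lower of 33, beside 2.74% of all genes higher and 5.84% lower. Among the higher were the inhibitor Timp1 by 1.27 ± 0.15 (log2 ± SE), adjusted p = 0.0017 and the gelatinase Mmp2 by 1.71 ± 0.35 (log2 ± SE), adjusted p = 0.01. Mmp13 had 21.9 normalized counts in the Control line of Set 1 against 83.5, 91 and 84.9 in those of Sets 2, 3 and 4, and 2.24 in the Notch3IC line against 44, 23.9 and 18.6. The collagenase Mmp13 was lower (-2.41 ± 0.48 (log2 ± SE), adjusted p = 0.009), although Notch3IC of Sets 3 and 4 lay close to Control Set 1. Mmp3 had 0.995 and 0 in Set 1, which is 1 count in the pair, against 8.79 to 40.2 in the others. Mmp8 and Mmp10 had 0 counts in Set 1 and were at least 1.67 and 2.07-fold lower there, from a floor of 3 counts per library. Both reached the test only through the libraries where they are high, and with a filter by condition alone 2 members were called lower, about the share of all genes. In single libraries the lower count was 2 without Control of Set 1, Control of Set 2 or Control of Set 4, and 6 without Notch3IC of Set 1. The higher count was 2 without Control of Set 1, where Mmp2 lost its call.

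Of genes that mark the tissue of origin, many were lower in Set 1. Among 25 tested ovarian surface and mesothelial genes 12 were called lower (11 with a filter by condition alone) and 1 (Emx2) higher, beside 2.74% of all genes higher and 5.84% lower, with a median of -0.82 (-0.80 in the Control line and -1.18 in the Notch3IC line). Wt1 had 6332 normalized counts in the Control line of Set 1 against 11832, 16416 and 14787 in those of Sets 2, 3 and 4, and 3511 in the Notch3IC line against 9337, 8216 and 7242. Wt1, the transcription factor of mesothelium, was below all others in Set 1 (-1.21 ± 0.15 (log2 ± SE), adjusted p = 0.002). Krt19 stood at 1276 in Control Set 1 against 2937, 6166 and 7456, and at 266 in Notch3IC Set 1 against 1629.8, 1081 and 1132. For Lrrn4 the values were 536 against 2052, 3333 and 2909.8 in the Control lines and 50.3 against 1253, 786 and 739.6 in the Notch3IC lines. Krt19, a simple epithelial keratin, overlapped between the groups, since Control Set 1 was above the Notch3IC lines of Sets 3 and 4, but within each line Set 1 was lowest (-2.18 ± 0.37 (log2 ± SE), adjusted p = 0.0052). Lrrn4, a membrane protein that marks mesothelium, was lowest in both Set 1 lines and differed by -3.01 ± 0.46 (log2 ± SE), adjusted p = 0.0037.

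Cdh1 had 117 normalized counts in the Control line of Set 1 against 598, 360.0 and 638 in those of Sets 2, 3 and 4, and 61.5 in the Notch3IC line against 517, 389 and 265. Cdh1, E-cadherin of epithelial junctions, was below all 6 others in both lines (-2.40 ± 0.35 (log2 ± SE), adjusted p = 0.0032). Upk3b and Msln, surface proteins of mesothelial cells, were lower by -2.33 ± 0.40 (log2 ± SE), adjusted p = 0.0057 and -1.71 ± 0.51 (log2 ± SE), adjusted p = 0.037. Krt8 and Krt18, the other keratins tested on the list, differed by -0.31 and -0.73 at adjusted p of 0.35 and 0.27. Emx2, a homeobox factor of the urogenital tract, was higher by 1.09 ± 0.17 (log2 ± SE), adjusted p = 0.0043, and without Set 4 it passed the test (adjusted p = 0.03) at 0.995, at the fold limit but under it. With 1 value per set 9 ovarian surface and mesothelial genes were called lower, without Control of Set 1 the count was 8, without its Notch3IC library 7 and without Set 4 8. With no condition term 4 were called lower.

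Amhr2 had 15.9 normalized counts in the Control line of Set 1 against 471, 264 and 308 in those of Sets 2, 3 and 4, and 11.2 in the Notch3IC line against 159.8, 146 and 126. Amhr2, the receptor of anti-Müllerian hormone, was far below all others in both Set 1 lines, a difference of -4.10 ± 0.36 (log2 ± SE), adjusted p = 0.00088. Cldn15 stood at 108 in Control Set 1 against 578, 1544 and 1332, and at 6.71 in Notch3IC Set 1 against 356, 146 and 170.3. Cldn15, a pore-forming claudin, was lowest in both Set 1 lines (-3.80 ± 0.63 (log2 ± SE), adjusted p = 0.0049), as was the guanylate cyclase receptor Npr1 (-3.78 ± 0.73 (log2 ± SE), adjusted p = 0.0086), whose call was lost without Control of Set 1. Of the epithelial and junction genes 6 of 28 were called lower (Cdh1, F11r, Cldn15, Krt19, Elf3 and Evpl) and 2 higher (the desmosomal plakophilins Pkp1 and Pkp2), beside 2.74% of all genes higher and 5.84% lower, with a median of -0.29. The lower count was 4 without either Set 1 library, and 1 with no condition term. Pkp1 was not called with 1 value per set (adjusted p = 0.28), without either Set 1 library or without Set 3.

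**Figure D4:**
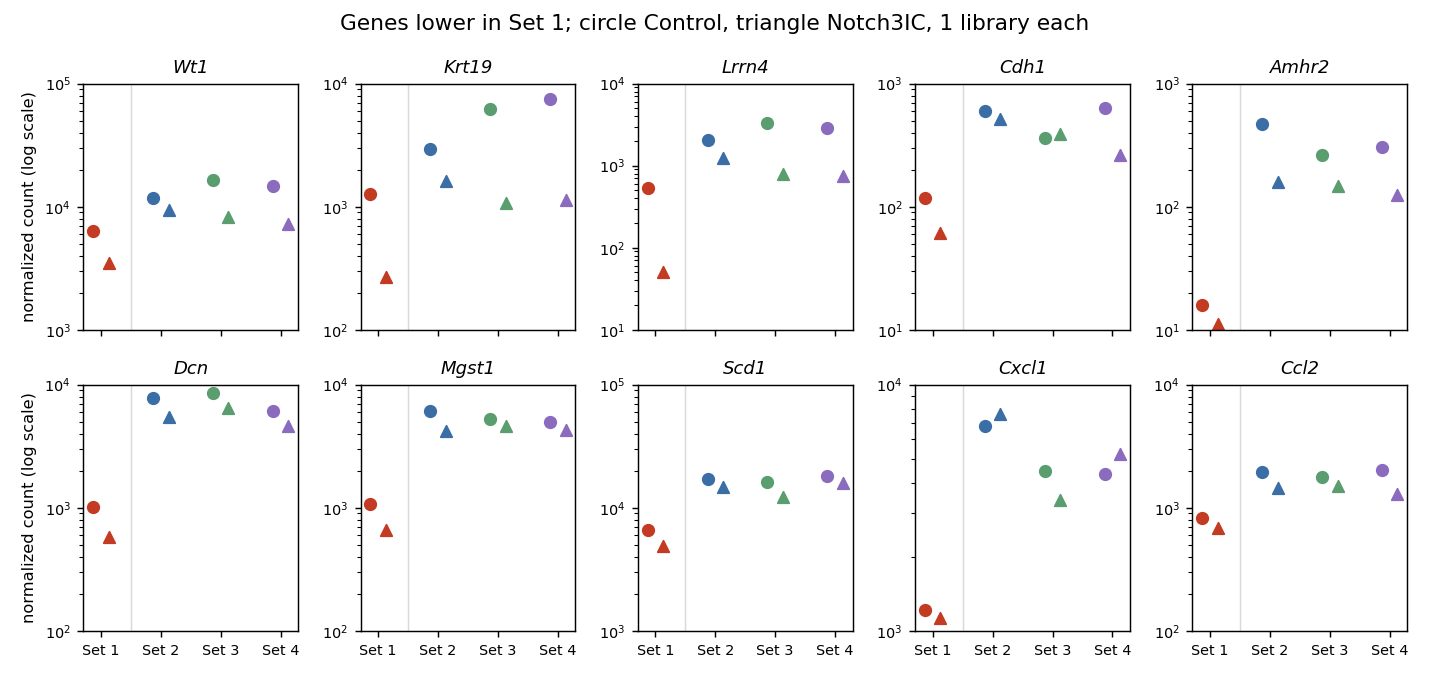
Normalized counts on log axes of 10 genes called lower in Set 1, by set, with 1 circle (Control) and 1 triangle (Notch3IC) per set. Within each line the Set 1 symbol is the lowest in each panel, and for Krt19 Control Set 1 lies above 2 Notch3IC libraries of other sets.

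Genes of lipid synthesis and detoxification were among those lower in Set 1. In the cholesterol and fatty acid synthesis list 8 of 30 tested were called lower and 0 higher, beside 2.74% of all genes higher and 5.84% lower, with a median of -0.69. Fads1 had 8375 normalized counts in the Control line of Set 1 against 16368, 19322 and 19432 in those of Sets 2, 3 and 4, and 8088 in the Notch3IC line against 14375, 19422 and 19744. Fads1, a desaturase of polyunsaturated fatty acids, was below all others in Set 1 (-1.14 ± 0.14 (log2 ± SE), adjusted p = 0.002), and Fads2 of the same pathway was lower by -1.39 ± 0.16 (log2 ± SE), adjusted p = 0.0015. Scd1 stood at 6624 in Control Set 1 against 17261, 16252 and 18239, and at 4877 in Notch3IC Set 1 against 14650.2, 12311 and 16030.2. Scd1, the stearoyl-CoA desaturase that makes monounsaturated fat, was below all others (-1.47 ± 0.12 (log2 ± SE), adjusted p = 0.00072), as was Scd2 (-1.02 ± 0.09 (log2 ± SE), adjusted p = 0.00091), though both belong to a family of near copies and their counts are uncertain. Without Control of Set 1, Notch3IC of Set 4 or the whole of Set 4 Scd2 passed the test with a log2 difference just under the fold limit, the smallest in size being -0.95. Nsdhl, Sc4mol, Cyp51 and Insig1 are sterol pathway genes and were also called lower, with log2 differences of -1.08, -1.75 and -1.15 for Nsdhl, Sc4mol and Insig1. Without Control of Set 1 the count of lower members was 4, without Set 2 it was 5, and with library totals alone it was 12.

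Among Nrf2 and glutathione genes 7 of 35 were called lower and 0 higher, beside 2.74% of all genes higher and 5.84% lower, while the median was -0.15. Mgst1 had 1076 normalized counts in the Control line of Set 1 against 6071, 5232 and 4965 in those of Sets 2, 3 and 4, and 663 in the Notch3IC line against 4243, 4583 and 4318. Mgst1, a microsomal glutathione transferase, was below all others by -2.52 ± 0.13 (log2 ± SE), adjusted p = 0.00035, the smallest adjusted p among the named genes. Gsta4 stood at 388 in Control Set 1 against 2729, 1378 and 2352, and at 772 in Notch3IC Set 1 against 3343, 2257 and 2282. Gsta4, which conjugates lipid aldehydes, was lower by -2.09 ± 0.32 (log2 ± SE), adjusted p = 0.004. The called members were transferases (Mgst1, Mgst2, Mgst3, Gsta3, Gsta4, Gstt1 and Gstm6). With either Set 1 library left out 2 members were called lower, with 1 value per set 3 and with the set as a random block effect 4. Gstm6 reached the test only through the sets where it is high.

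In the drug efflux, Aldh1a and xenobiotic genes 9 of 30 were called lower (7 with a filter by condition alone) and 2 higher, beside 2.74% of all genes higher and 5.84% lower, with a median of -0.50. For Abcc3 the values were 7.96 against 85.9, 58.4 and 71.4 in the Control lines and 3.36 against 89.4, 32.1 and 46.4 in the Notch3IC lines. Abcc3, an exporter of conjugated drugs, was below all others (-3.48 ± 0.54 (log2 ± SE), adjusted p = 0.004), and Aldh1a2, which makes retinoic acid, was lower by -1.41 ± 0.30 (log2 ± SE), adjusted p = 0.012. Abcb1b, a multidrug transporter with 1 near copy, was higher by 1.01 ± 0.23 (log2 ± SE), adjusted p = 0.014. The call of Aldh1a2 was lost without either Set 1 library, and that of Abcb1b without Notch3IC of Set 1. Abcb1b passed the test with 1 value per set (adjusted p = 0.061) at 0.98, just under the fold limit, as it did without several libraries of other sets. Without Control of Set 1 the count of lower members was 3 and without its Notch3IC library 2, and without Set 4 it was 5.

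Of 19 chemokines and cytokines 5 were called lower (4 with a filter by condition alone) and 1 higher, beside 5.84% and 2.74% of all genes, with a median of -0.51. Cxcl1 had 1215 normalized counts in the Control line of Set 1 against 6778, 4463 and 4347 in those of Sets 2, 3 and 4, and 1124 in the Notch3IC line against 7604, 3408 and 5231. Cxcl1, a neutrophil chemokine, was below all others in both Set 1 lines (-2.18 ± 0.33 (log2 ± SE), adjusted p = 0.0037). Ccl2 stood at 826 in Control Set 1 against 1947, 1791 and 2014, and at 688 in Notch3IC Set 1 against 1442, 1492 and 1305. Ccl2, the monocyte chemokine, was too (-1.13 ± 0.09 (log2 ± SE), adjusted p = 0.00072). For Ccl5 the values were 38.8 against 13.1, 14.4 and 5.55 in the Control lines and 171 against 2.93, 28.5 and 7.59 in the Notch3IC lines. Ccl5, a T cell chemokine, was above all others (2.89 ± 0.66 (log2 ± SE), adjusted p = 0.015), a call lost without Notch3IC of Set 1. In the list of NF-kB subunits and feedback genes 4 of 23 were lower (Ikbke, Lcn2, Tnip3 and Saa3, with Lcn2 tested only through the sets where it is high) and Ptgs2, the inducible cyclooxygenase, was higher (1.69 ± 0.47 (log2 ± SE), adjusted p = 0.029), a call lost without either Set 1 library or without Set 4. Of these only Ikbke was called with 1 value per set, and Saa3 lost its call with the set as a random block effect (adjusted p = 0.3). The lower count of chemokines was 3 without either Set 1 library or without Set 4, and that of NF-kB genes was 1 without either Set 1 library and 2 without Set 4.

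Hp had 8.95 normalized counts in the Control line of Set 1 against 659.9, 112 and 228 in those of Sets 2, 3 and 4, and 4.48 in the Notch3IC line against 314, 183 and 213. Hp, haptoglobin of the acute phase, was below all others with a difference of -5.38 ± 0.90 (log2 ± SE), adjusted p = 0.0051, and 1 value per set gave an adjusted p of 0.068. With the set as a random block effect the call was lost (adjusted p = 0.104). Alb stood at 0 in Control Set 1 against 0, 336 and 638, and at 0 in Notch3IC Set 1 against 1.47, 302 and 458. Albumin was at or near 0 in Sets 1 and 2 alike, and its call (edgeR adjusted p = 0.092) rested on Sets 3 and 4. With 1 value per set its adjusted p was 0.25, and with the random block 0.565.

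Several genes of ribosome assembly were higher. In the ribosome biogenesis and Myc targets list 9 of 35 tested were called higher and 0 lower, beside 2.74% of all genes higher and 5.84% lower, with a median of 0.85, 0.80 in the Control line and 0.89 in the Notch3IC line. Wdr12 had 1409 normalized counts in the Control line of Set 1 against 462, 389 and 465 in those of Sets 2, 3 and 4, and 1200.5 in the Notch3IC line against 457, 259 and 322. Wdr12, part of the PeBoW complex that matures the large subunit, was above all others (1.74 ± 0.18 (log2 ± SE), adjusted p = 0.0012), and its partner Pes1 was higher by 1.19 ± 0.11 (log2 ± SE), adjusted p = 0.00098. Rrp12 stood at 4645 in Control Set 1 against 1756, 1374 and 1857, and at 4058 in Notch3IC Set 1 against 1982, 937 and 1137. Rrp12, an export factor of both subunits, was higher by 1.54 ± 0.24 (log2 ± SE), adjusted p = 0.004, and Rrp9, a U3 particle protein, by 1.36 ± 0.17 (log2 ± SE), adjusted p = 0.002. Near copies among other annotated genes were found for Fbl, Pes1, Wdr12, Mrto4, Mybbp1a and Odc1 but not for Rrp9, Rrp12 and Ddx21. Over the 20 tested members with no near copy 3 were called higher and the median was 0.74. The count was 15 without Notch3IC of Set 2 or without Set 2.

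No DNA replication and mitosis gene was called among 40 tested by edgeR or DESeq2, with 28 at an unadjusted p under 0.05, although 27 passed an adjusted p under 0.1 with no fold limit and were higher and 1 was lower, beside 21.8% and 18.4% of all genes, and the median was 0.31. Mcm7 had 7085 normalized counts in the Control line of Set 1 against 3234, 3545 and 3441 in those of Sets 2, 3 and 4, and 6020.1 in the Notch3IC line against 3389.9, 3205 and 3053. Mcm7, a subunit of the replicative helicase, was the nearest to the limit among the Mcm genes at 0.98 ± 0.07 (log2 ± SE), adjusted p = 0.0005.

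**Figure D5:**
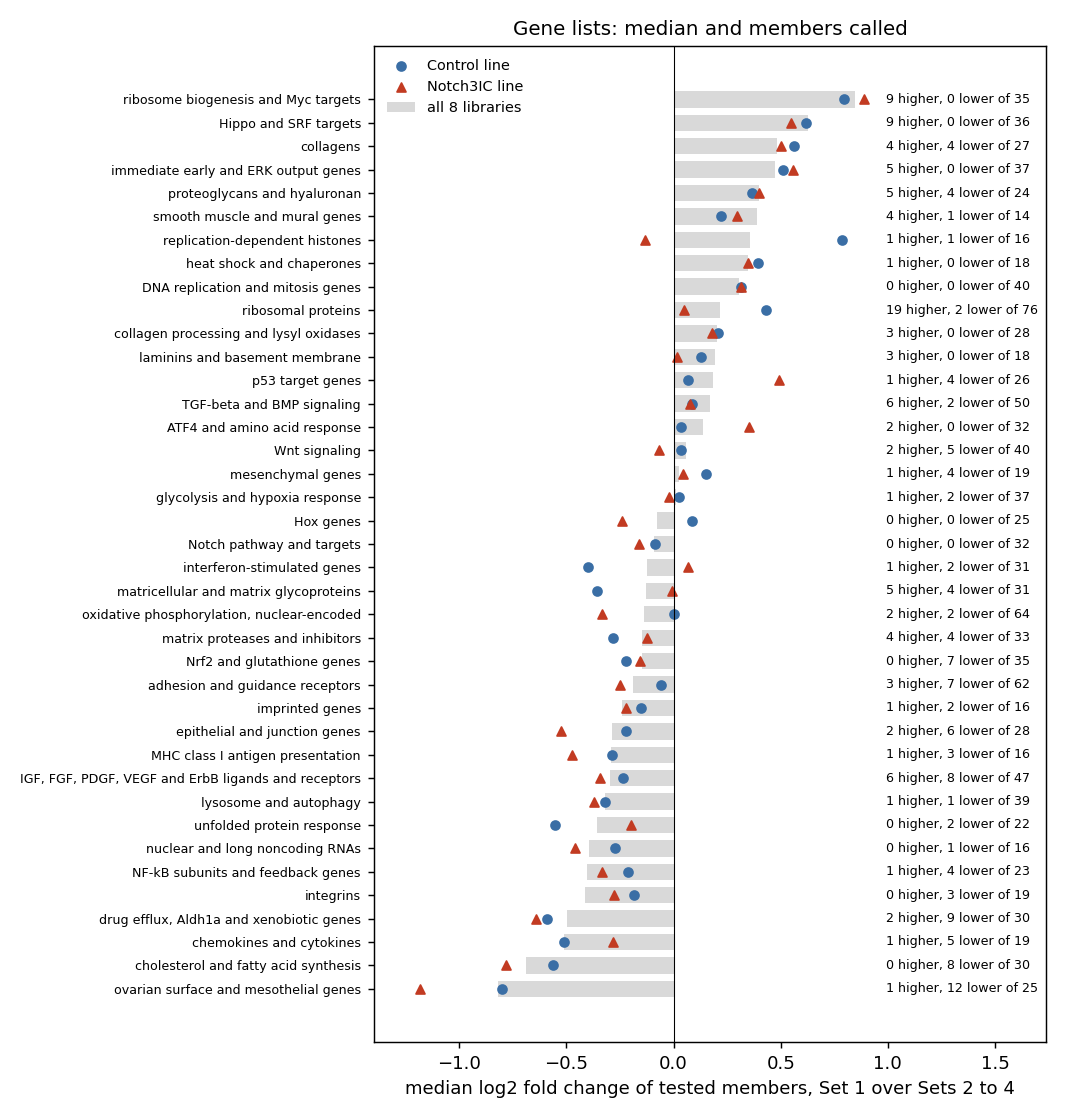
Median log2 fold change of Set 1 over Sets 2 to 4 for gene lists with at least 14 tested members, as bars over all 8 libraries and as points within the Control and the Notch3IC line, with the called members at the right. Ribosome biogenesis (0.85) and Hippo and SRF targets (0.63) stand highest, and cholesterol synthesis (-0.69) and ovarian surface genes (-0.82) lowest. The 19 higher ribosomal proteins all have near copies.

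Genes with near copies, whose counts are uncertain, took an unequal share of the calls. A near copy is another annotated gene of GRCm38 whose longest transcript matches at least 50% of a gene's longest coding sequence at 85% identity or more. For genes with no coding sequence the longest transcript was used. Copies outside annotated transcripts were not searched for. Of the 354 genes called higher 27.1% have one, and of the 753 called lower 8.90%, beside 1850 of the 12899 genes tested. Of 76 tested ribosomal proteins 74 have copies. The 19 called higher all do, and of the 2 without a copy Rpl41 was lower and neither was higher. Rps7 had 2099.7 normalized counts in the Control line of Set 1 against 159, 93.8 and 113 in those of Sets 2, 3 and 4, and 1432 in the Notch3IC line against 204, 79 and 90.2. Rps7, a small-subunit protein with 25 near copies, was the gene with the widest difference among the named higher genes (3.85 ± 0.32 (log2 ± SE), adjusted p = 0.00075). Without Control of Set 1 the count of higher ribosomal proteins was 6, with library totals alone 13, and with 1 value per set 13.

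Retrocopies of protein-coding genes were among those lower in Set 1. Gm6524 had 3.98 normalized counts in the Control line of Set 1 against 138, 79.5 and 102 in those of Sets 2, 3 and 4, and 7.83 in the Notch3IC line against 129, 95.5 and 99.5. Gm6524 is a single-exon copy of Katna1, the catalytic subunit of the microtubule-severing katanin, and was below all others in both Set 1 lines (-4.18 ± 0.40 (log2 ± SE), adjusted p = 0.00098). Of the counts of this pair the copy held 0.391% and 0.871% in Set 1, and 9.11% to 14.8% in the others. The start of the coding sequence is shown because the pair differs there at few bases. Capitals mark the 4 of 90 bases at which the copy and its parent differ, in exon 2 of 11 of Katna1 (GRCm38, chr10:7738736-7738825, plus strand) and in the only exon of Gm6524 (chr8:11694395-11694484, minus strand), and the aligned sequences are 92.1% identical.
Katna1: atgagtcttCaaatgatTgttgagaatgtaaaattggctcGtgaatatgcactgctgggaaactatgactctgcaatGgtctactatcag
Gm6524: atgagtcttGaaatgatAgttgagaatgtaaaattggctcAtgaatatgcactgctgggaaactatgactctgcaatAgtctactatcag
The aligned sequences differ at further bases outside this stretch.

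Gm5124 stood at 0 in Control Set 1 against 71.6, 74.7 and 92, and at 0 in Notch3IC Set 1 against 101, 65.2 and 80.1. Gm5124, a transcribed processed pseudogene of Nolc1 that is annotated with both an unspliced and a spliced transcript, had 0 counts in Set 1 and was at least 25.5-fold lower there, from a floor of 3 counts per library, with 71.8% of its exon bases overlapping another gene. The first exon of Nolc1 (chr19:46076030-46076119, plus strand) and the unspliced transcript of the copy (chrX:21360940-21361029, plus strand) differ at 7 of 90 bases, again in capitals, with 85.01% identity overall.
Nolc1: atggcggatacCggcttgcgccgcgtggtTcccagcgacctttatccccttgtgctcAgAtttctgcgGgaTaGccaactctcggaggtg
Gm5124: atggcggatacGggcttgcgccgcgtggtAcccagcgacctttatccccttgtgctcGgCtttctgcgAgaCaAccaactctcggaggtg
For Aldoart2 the values were 17.9 against 1711, 799 and 715 in the Control lines and 13.4 against 1754, 707 and 669 in the Notch3IC lines. Aldoart2, a retrogene of the aldolase Aldoa, held 0.0665% and 0.0647% of the counts of that pair in Set 1 and 3.84% to 8.98% in the others. Prdx6b, a retrogene of Prdx6, had 0 counts in both Set 1 lines and 76.2 to 163 normalized counts in the others, at least 36-fold lower. Of the 132 tested single-exon genes with a near copy, 19 were called lower (14.4%) and 8 higher (6.06%), beside 5.84% and 2.74% of all genes. Of the 252 single-exon genes with no near copy, 11 were called lower (4.37%) and 13 higher (5.16%). The share of reads that could be placed in more than 1 way, and how they were counted in each library, is not given in the sources used here, and its part in these differences was not tested.

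Measures of the libraries differed between the sides as well. Transcripts of Neat1, a nuclear noncoding RNA, were below all others in Set 1, at -2.20 ± 0.27 (log2 ± SE), adjusted p = 0.002. Neat1 and Malat1 together took 366 and 245 CPM (counts scaled to the library total) in Control and Notch3IC of Set 1, against 585 to 1660.4 in the others. The ribosomal RNA precursor Rn45s took 0.744% and 0.435% of the counts in Set 1 and 0.303% to 0.487% in the others. Genes with at least 1 count numbered 14430 and 14629 in Set 1 and 14697 to 15503 in the others, and the TMM factors were 0.942 and 0.908 against 1.00 to 1.04. The part of these measures in the differences above was not tested.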

How the data were processed

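Whole-number read counts per gene symbol, 1 table per library, were deposited by the authors without normalization, for 23284 symbols, 17359 of them detected and 12899 tested. Per the submitters' processing notes the tools were TopHat, Cufflinks and DESeq with the build mm9. The annotation and the strandedness are not given in the sources used here. No line of the tables lacked a gene name (0 non-gene rows). Library totals ran from 15524262 to 28208072 counts, and the biological coefficient of variation was 19.6%.

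Set 1 was tested against Sets 2 to 4 with edgeR 4.0.16 in R 4.3.3 (TMM, filterByExpr on the design, robust quasi-likelihood fit with condition as a term, two-sided F test, Benjamini-Hochberg over all tested genes). Calls needed an adjusted p under 0.1 and a log2 difference reaching 1 in either direction, the thresholds of the study. The difference in Notch3IC effect was the interaction of condition and side, with a residual spread from Sets 2 to 4 alone. Gene lists were described by counts and medians. Members and lists were chosen with earlier results of these data known. The genes named were the 15 widest called differences in each direction that lay outside the range of the other sets in both lines, with 50 counts or more in each library on the higher side, the 4 members of each list with the smallest adjusted p per direction, the 4 highest-count such genes per direction, and Notch3, Hey1, Heyl, Nrarp, Hes1 and Itgb1. Other members of lists are named where a count is given, and Krt8, Krt18, Myh11, Des and Mcm7 were chosen after their values were seen. Results for some genes that this rule names are not reported here.

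After removal of the condition means, the Control and Notch3IC library of a set had across-gene correlations of 0.783, 0.492, 0.553 and 0.434 (Set 1 first), and crossed sets of -0.431 to 0.389. By the study's design a set is a matched pair, so the set numbers pair the libraries, and fits with the set as a replicate block were alternatives. Further alternatives were other normalizations, filters and thresholds, DESeq2 1.42.0, limma 3.58.1, no condition term, 1 value per set, each line alone, leaving out each library or set, and offsets for GC content and length. A fit over genes with no near copy was chosen after seeing the data. Near copies were found with BLAST 2.17.0 between annotated genes of GRCm38. The longest coding sequence of a gene, or its longest transcript where it has none, was aligned to the longest transcript of each other gene. A copy needed at least 85% identity over at least 50% of the aligned gene's sequence. Symbols were matched to GENCODE by name (20882) or synonym (1943). The steps were tested on simulated data.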

Additional observations from a re-analysis of the deposited data

Results flagged for a closer look

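Measurements of 2 genes among the 41 named genes examined for a gap within the 6 libraries of Sets 2 to 4 stood far from the other 5. Rps28, a ribosomal protein with 15 near copies, had 222.8 normalized counts in Notch3IC of Set 2, against 154.7 in the nearest of the others, a gap of 0.644 of the whole range. Hp, haptoglobin, had 660 in Control of Set 2 and 314 in the nearest, a gap of 0.632 of the range. Both gaps pass Dixon's 95% limit for 6 values. Chance marks about 1 in 20 groups. Neither library belongs to Set 1, both genes keep Set 1 on the same side of all 6 values, and the cause was not tested.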

How the results depend on the processing

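Across the alternatives none of the 184 called genes that are named changed direction. Between 181 kept their call (RLE size factors, replicate block as fixed terms) and 105 (without Notch3IC of Set 1), among settings that gave a value for all 184, with 184 where the fold limit was dropped. With 1 value per set, 1 set against 3, 134 kept it, and the counts of calls were 228 higher and 492 lower. Why fewer genes were called with 1 value per set was not tested. Within 1 line, where 1 library stands for Set 1, the Control line gave 382 lower and the Notch3IC line 210 higher and 449 lower. Leaving out single libraries gave 214 to 419 higher and 397 to 911 lower. The lowest higher count came without Control of Set 1 (214) and the lowest lower count without Notch3IC of Set 1 (397). Without a limit on the fold change 2807 genes were higher and 2372 lower. DESeq2 called 5 genes for the difference in Notch3IC effect, edgeR 0. The other normalizations, filters and thresholds left both counts within 1.5 times, at 239 to 378 higher and 504 to 997 lower. Leaving out a whole set did so as well (265 to 471 higher and 575 to 934 lower). Of 44 list medians 35 kept their sign within each line alone and with each whole set of the other side left out. Other alternatives are not part of that count. With library totals alone the median of the mesenchymal genes turned from 0.03 to -0.12.

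Fits with the set as a replicate block gave 445 higher and 791 lower as fixed terms, and 380 and 551 with the set as a random effect (consensus correlation 0.208). The pairing changed the sign of the Notch genes, which passed no threshold in the fit without it: Notch3 was 0.36 and 0.50 on the log2 scale in these fits, Hey1 0.29 and 0.25, Heyl 0.31 and 0.11, and Nrarp 0.93 and 1.02. No named gene that was called changed sign under the block.

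The same 4 genes gave the remaining changes of direction. Heyl was 0.34 with DESeq2 and 1.47 in the Control line alone. Nrarp was 0.16 with no condition term, 0.059 with 1 value per set and 0.16 in the Notch3IC line alone. Without Set 3 Notch3, Heyl and Nrarp were 0.27, 0.15 and 0.48, and without Set 4 Nrarp was 0.029. Leaving out single libraries gave Notch3 -0.71 to 0.16, Heyl -1.29 to 1.44 and Nrarp -0.96 to 0.39, with the sign changed without Notch3IC of Set 3 for all 3 genes, without Notch3IC of Set 1 for Heyl, and without Control of Set 1 or Set 3 for Nrarp. Without Notch3IC of Set 2, which has the lowest Notch3 of its line, Hey1 (-1.02) and Heyl (-1.29) were called lower in Set 1. The causes were not tested. With 1 infection on the Set 1 side, the number of infections limits these comparisons, and depth does so for genes at or near 0 in Set 1.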

Other observations

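Of 26 p53 target genes 4 were called lower and 1 (Gdf15) higher, beside 2.74% of all genes higher and 5.84% lower, while the median was 0.19 and 17 lay above 0. The lower count was 1 without either Set 1 library and 2 with 1 value per set, and Gdf15 was not called without either Set 1 library. Among the lower was Fas, the death receptor. Fas had 582 normalized counts in the Control line of Set 1 against 2168, 1174 and 1168 in those of Sets 2, 3 and 4, and 487 in the Notch3IC line against 1766, 935 and 1099. It lay below all others in Set 1 (-1.37 ± 0.33 (log2 ± SE), adjusted p = 0.018) and was not called with 1 value per set or without either Set 1 library. Of 22 genes of the unfolded protein response Sdf2l1 and Derl3, chaperone and degradation factors of the endoplasmic reticulum, were lower by -1.35 ± 0.19 (log2 ± SE), adjusted p = 0.003 and -3.01 ± 0.68 (log2 ± SE), adjusted p = 0.015, and the median was -0.36. The count of lower unfolded protein response genes was 1 without either Set 1 library, where Derl3 lost its call. The glycolysis and hypoxia response held 1 higher (Ankrd1) and 2 lower of 37, near the shares of all genes, with a median of 0.01. The lower ones were Aldoc and Eno2, the aldolase and enolase isoforms of nerve cells, at -2.17 ± 0.23 (log2 ± SE), adjusted p = 0.0012 and -1.29 ± 0.24 (log2 ± SE), adjusted p = 0.0081. Of 32 genes of the ATF4 and amino acid response Phgdh, the first enzyme of serine synthesis, was higher by 1.37 ± 0.22 (log2 ± SE), adjusted p = 0.0043, with 20 near copies, and Stc2 by 1.38 ± 0.44 (log2 ± SE), adjusted p = 0.049, and Stc2 was not called with 1 value per set (adjusted p = 0.21), without either Set 1 library or without Set 3.

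Interferon-stimulated genes showed 1 higher (Ifit1) and 2 lower (Ifi47 and Igtp) of 31, near the 2.74% and 5.84% of all genes, with medians of -0.40 in the Control line and 0.07 in the Notch3IC line. The call of Ifit1 was lost without Notch3IC of Set 1. The lower count was 0 without Control of Set 1 and 4 without its Notch3IC library, and Igtp lost its call with the set as a random block effect (adjusted p = 0.198). Of 16 genes of MHC class I antigen presentation 3 were lower (Tapbp, H2-T23 and Psmb9) and 1 higher (Psme2, 2.05 ± 0.39 (log2 ± SE), adjusted p = 0.008, with 2 near copies), beside 2.74% of all genes higher and 5.84% lower. The lower count was 0 without Control of Set 1 or with 1 value per set, and 1 without Notch3IC of Set 1, without Set 2 or with the set as a random block effect. Of 40 genes of Wnt signaling 5 were lower and 2 higher, beside 2.74% of all genes higher and 5.84% lower, with a median of 0.06. The call of Wnt2, 1 of the 2 higher, was lost without Notch3IC of Set 1. The lower count was 1 without Control of Set 1, 3 without its Notch3IC library, 2 with 1 value per set and 1 with the set as a random block effect. Wnt6 had 72.6 normalized counts in the Control line of Set 1 against 286, 266 and 358 in those of Sets 2, 3 and 4, and 13.4 in the Notch3IC line against 132, 35.8 and 55.7. The ligand Wnt6 was lowest within each line in Set 1 (-2.20 ± 0.50 (log2 ± SE), adjusted p = 0.015), a call lost without either Set 1 library (adjusted p = 0.12 without Control and 0.13 without Notch3IC), and the receptor Fzd9 was above all others (2.13 ± 0.27 (log2 ± SE), adjusted p = 0.0021). None of 25 tested Hox genes was called by edgeR or DESeq2, and 4 had an unadjusted p under 0.05. The median log2 difference of chromosomes ranged from -0.10 (chromosome X) to 0.05.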
